A study of Mus musculus with 4 samples.

Results

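The accessible chromatin of 36 nuclear receptor genes was described in 3T3-L1, a mouse embryo fibroblast line that can be turned into fat cells in culture. The genes were taken by symbol from GENCODE M21 among its 21829 protein-coding genes. They cover 16 receptor subfamilies and leave out the PPAR, RXR and LXR genes. DNase-seq, which marks open chromatin by where the nuclease DNase I cuts, was done on 4 libraries from 2 biosamples, with 2 technical libraries for each. The labels give the strain as C57BL/6J and the age and developmental stage as unknown, name no treatment or time in culture, and do not tell whether the 2 biosamples came from separate cultures. Each biosample has 1 peak list and 1 list of broader regions called hotspots, made by the authors from both of its libraries together.

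Nuclear receptors are transcription factors of which many are switched by small lipid-soluble ligands such as steroid hormones, thyroid hormone, vitamin D and retinoic acid, while others, the orphan receptors, have no established ligand. Most bind repeats of a short core sequence as homodimers, as heterodimers with RXR or as monomers, and exchange corepressors for coactivators when ligand arrives. In preadipocytes several of them, among them the COUP-TF, NR4A and retinoic acid receptors, are known to act on the decision to become a fat cell.

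Each peak spans up to 150 bp and carries an integer score of at most 150. How that score is defined is not given in the sources used here, so it was read only within its own list, by rank. Scores and percentiles of both lists are printed side by side but are not compared between lists. The mean of a gene's 2 percentiles served only to pick out the strongest promoters. The lists held 298212 peaks in biosample 1 and 97260 in biosample 2, lengths so different that a lower rank shows no change, and the depth behind them is unknown because they hold no read counts. With 1 list for each biosample there is no replicate spread, no difference was tested, and the intervals given below cover counting error over peaks only. In bulk cells, fewer cells with an open site and less access in each cell cannot be told apart. All 8 fibroblast markers had promoter peaks in both lists, and none of the 4 hepatocyte markers and none of the 4 adipocyte markers did. In both lists peaks were found at 2 of 4 macrophage markers, Cd68 and Csf1r, at 1 of 4 neuron markers, Snap25, and at 1 of 4 markers of steroid-making cells, Star.

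A receptor gene was called open when a peak reached within 1000 bp of any of its protein-coding start sites in both lists. By this rule 17 of the 36 genes were open (47.2%), close to the 51.8% of all protein-coding genes. Another 6 had a promoter peak in biosample 1 alone, which brought the number in that list to 23 (63.9%), beside 62.6% of all genes. The remaining 13 had none in either list, and no gene had one in biosample 2 alone. By hotspots in place of peaks, 18 genes were open in both lists, beside 52.1% of all genes. CpG-rich promoters, with an observed over expected CpG ratio of at least 0.6 around the most upstream start site, were open in 10 of 15 receptor genes (66.7%), against 80.2% of all CpG-rich genes. CpG-poor promoters were open in 7 of 21 (33.3%), against 27.1% of all CpG-poor genes. Among genes open in both lists, the strongest promoter peak had a median percentile of 93.8 in biosample 1 and 78.1 in biosample 2 for the receptor genes, beside 95.5 and 86.4 for all genes. The receptor genes as a set were therefore open about as often as other genes, at somewhat lower scores.

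The genes with peaks in both lists were the retinoic acid receptor genes Rara, Rarb and Rarg, the thyroid hormone receptor gene Thrb, Rora, the vitamin D receptor gene Vdr, Nr1i2, Nr2c1, Nr2c2, Nr2f1, Nr2f6, Esr2, Esrra, the mineralocorticoid receptor gene Nr3c2, Nr4a1, Nr4a3 and Nr6a1. Those with a peak in biosample 1 alone were Thra, Nr1h4, Nr1i3, Nr2f2, Esr1 and Nr4a2. In 8 subfamilies (NR1A, NR1F, NR1I, NR2F, NR3A, NR3B, NR3C and NR4A) some members were open and others were not. All members were open in NR1B, NR2C and NR6A, and none in NR0B, NR1H, NR2A, NR2E and NR5A.

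**Figure D1:**
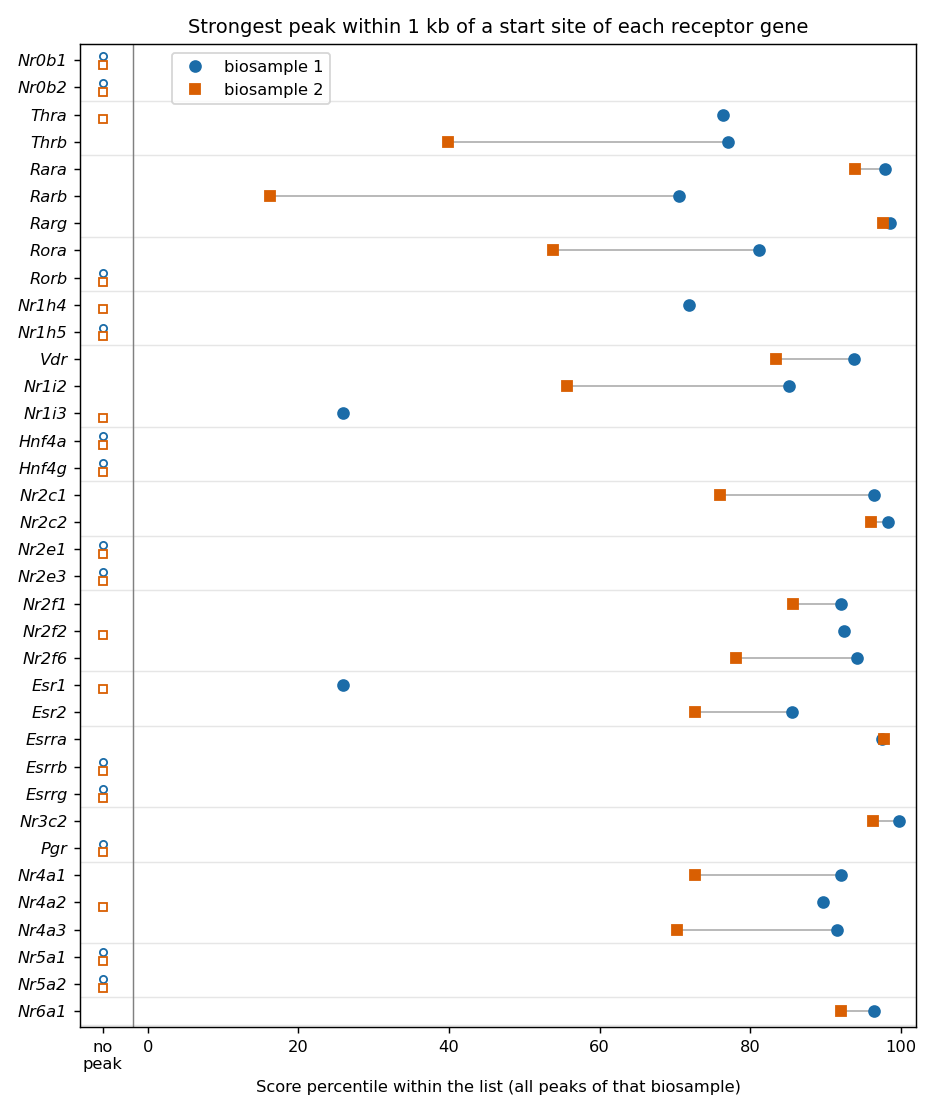
Score percentile of the strongest peak within 1 kb of a start site for each of the 36 receptor genes, ordered by subfamily (x axis, percentile within the list of that biosample; circles biosample 1, squares biosample 2; hollow marks at the left mean no peak). Rarg, Esrra, Nr3c2 and Nr2c2 lie at or above 96.0 in both lists, whereas Rarb lies at 70.6 in biosample 1 and 16.2 in biosample 2.

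The 4 strongest receptor promoters by the mean percentile of both lists were those of Rarg, Nr3c2, Esrra and Nr2c2, and their strongest biosample 1 peaks are shown because no other receptor promoter ranked as high in these lists. They are read 5′ to 3′ on the strand of the gene from GRCm38.p6, which has the chromosome sequences of mm10. Capitals mark the GC box GGGCGG, or its complement, in Nr3c2, Esrra and Nr2c2, and the TEAD core CATTCC, or its complement, in Rarg.
Rarg, chr15:102247016-102247165, minus strand: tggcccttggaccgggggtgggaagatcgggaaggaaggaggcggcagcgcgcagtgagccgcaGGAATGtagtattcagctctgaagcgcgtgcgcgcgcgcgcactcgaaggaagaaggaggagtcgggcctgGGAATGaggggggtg
Nr3c2, chr8:76902076-76902225, plus strand: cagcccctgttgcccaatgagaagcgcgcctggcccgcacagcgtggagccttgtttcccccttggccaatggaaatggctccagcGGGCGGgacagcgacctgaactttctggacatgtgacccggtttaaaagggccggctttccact
Esrra, chr19:6921916-6922065, minus strand: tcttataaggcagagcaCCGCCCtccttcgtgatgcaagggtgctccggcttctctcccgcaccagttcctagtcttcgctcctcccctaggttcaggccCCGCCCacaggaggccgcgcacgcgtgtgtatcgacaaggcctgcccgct
Nr2c2, chr6:92092176-92092325, plus strand: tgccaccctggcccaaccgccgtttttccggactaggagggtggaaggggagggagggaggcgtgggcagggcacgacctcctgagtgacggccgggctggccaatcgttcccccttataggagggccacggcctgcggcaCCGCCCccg
None of these windows meets an annotated exon. The peaks of Nr3c2, Esrra and Nr2c2 are centred at -138, -182 and -182 bp from the nearest start site, negative values lying upstream, and that of Rarg at -590 bp. Their GC content ran from 61.3% in Nr3c2 to 70.7% in Nr2c2, where the 114 biosample 1 promoter peaks of the receptor genes averaged 56.7%.

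The NR0B genes, which encode receptors without a DNA-binding domain that repress other receptors, were closed. Nr0b1 (DAX1) had the emptiest surroundings of the set in biosample 2, whose nearest peak lay 258 kb from its start site. The nearest biosample 1 peak lay 10392 bp away at the 1.03 percentile. For Nr0b2 (SHP), the target gene of bile acid signalling in liver, the nearest peak was the same in both lists, 7.19 kb from the start site. It scored 145 in biosample 1 and 72 in biosample 2. The peak was not among the distal peaks of the locus, so it lay within 1000 bp of another protein-coding gene's start site.

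The thyroid hormone receptor genes were split. The strongest peak of Thrb (chr14:17659136-17659285) scored 100 in biosample 1 and 28 in biosample 2, percentiles 77.0 and 39.9, and lay at -1050 bp, at the edge of the window. The strongest peak of Thra (chr11:98741716-98741865) scored 99 in biosample 1, percentile 76.4, and lay at -20 bp. All 5 promoter peaks of Thra were in biosample 1 alone, and the nearest biosample 2 peak lay 9.67 kb from its start sites. The biosample 1 percentiles of the pair were thus nearly equal while their calls in biosample 2 differed. Among 7 genes of thyroid hormone metabolism and response, only Dio2, which encodes the deiodinase that activates the hormone, was open (90 in biosample 1 and 18 in biosample 2).

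All 3 retinoic acid receptor genes were open, at very different percentiles. Rarg scored 144 and 89 in the 2 lists, percentiles 98.6 and 97.6. Rara (chr11:98937516-98937665, -108 bp) scored 142 and 77, percentiles 97.9 and 93.9. Rarb (chr14:16818916-16819065, 14 bp) scored 90 and 18, percentiles 70.6 and 16.2, the lowest of the 17 open genes in both lists. Rarg held 13 biosample 1 promoter peaks over its 5 start sites and Rara held 10 over its 5, the highest numbers of the set, with 3 and 2 in biosample 2.

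Within Rarb the start sites differed. The pair of upstream start sites, 0.151 kb apart, had peaks in both lists, whereas the pair about 243 kb further along the gene, at positions 16575827 and 16575543, had none in either. Of those downstream sites, the one at 16575543 lies in a RefSeq promoter (chr14:16575427-16575726, minus strand) that holds a DR5. Here a DR5 is a direct repeat of the loose receptor core RGKTCA with a spacer of 5 bases. In this core R is A or G, and K is G or T. Through this class of site retinoic acid is known to induce the gene. The Rarb element is printed with a few flanking bases because it is the promoter element for which the gene is best known. Capitals mark the repeat.
Rarb DR5, chr14:16575507-16575535, minus strand: gggaagGGTTCACCGAAAGTTCActcgca
It was the only DR5 in the 48 RefSeq promoters matched to 33 of the 36 receptor genes, and 0.0974% of all 32851 RefSeq promoters hold a DR5. The strongest shared distal peak of Rarb (chr14:16603296-16603445), in an intron 27.5 kb upstream of those sites, scored 143 and 76, percentiles 98.3 and 93.5. The gene therefore had strong open sites inside it while its retinoic acid element lay outside all peaks. That intronic peak is shown with its receptor core AGGTCA, here as the complement, in capitals.
Rarb intron, chr14:16603296-16603445, minus strand: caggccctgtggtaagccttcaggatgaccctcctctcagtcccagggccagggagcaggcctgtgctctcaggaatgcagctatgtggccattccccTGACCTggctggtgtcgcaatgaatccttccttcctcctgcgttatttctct
Of 11 genes that make, carry or break down retinoic acid, 2 were open and 4 had a peak in biosample 1 alone. The open genes were Rdh10 (143 and 78), which makes retinaldehyde from retinol, and Stra6 (115 and 32), the receptor that takes up retinol. Aldh1a1, Dhrs3, Cyp26b1 and Crabp2 had promoter peaks in biosample 1 only, and Aldh1a2, Aldh1a3, Cyp26a1 and Crabp1 were among those with no promoter peak.

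Among the NR1F genes, which encode receptors that bind as monomers, Rora was open (chr9:68653636-68653785, -76 bp, 107 and 35, percentiles 81.1 and 53.8). It was open at both of its start sites, which lie 636 kb apart. Rorb, known from retina and brain, had no promoter peak, and its nearest peaks lay 3.13 kb away in biosample 1 and 25.8 kb away in biosample 2.

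Among the receptors of bile acids, vitamin D and foreign compounds, Vdr and Nr1i2 were open, Nr1h4 and Nr1i3 had biosample 1 peaks alone and Nr1h5 had none. The strongest peak of Vdr (chr15:97907336-97907485, 132 and 59, percentiles 93.8 and 83.4) lay at 900 bp, inside the gene, and Vdr had 4 promoter peaks in each list. Its most upstream start sites had no peak in either list. Nr1i2 (PXR), a sensor of foreign compounds in liver and gut, had 1 peak in each list, at the same place (chr16:38295676-38295825, -926 bp, 114 and 36). Nr1i3 (CAR), a related liver receptor, had a biosample 1 peak at the 25.9 percentile (chr1:171212936-171213085, score 47, -960 bp), and its nearest biosample 2 peak lay 6.92 kb away. Nr1h4 (FXR), the bile acid receptor, had a biosample 1 peak of score 92 (chr10:89533556-89533705, -46 bp) and a biosample 2 peak 2.08 kb from its start site at the 90.6 percentile. Nr1h5 had no promoter peak, but a peak present in both lists lay 1.10 kb from its start site, just outside the window. Of 10 genes of vitamin D, bile acid and foreign compound metabolism, only Fgf15 was open (123 and 30). Slc51a had a promoter peak in biosample 1 alone (43). Cyp24a1, Cyp27b1, Cyp7a1, Cyp3a11 and Cyp2b10, the best known targets and enzymes, had no promoter peak in either list.

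In the NR2 family the NR2C and NR2F genes had promoter peaks, and the NR2A and NR2E genes had none. Nr2c1 (TR2; chr10:94147756-94147905, -192 bp, 138 and 51) and Nr2c2 (TR4; 143 and 83) were open. Hnf4a and Hnf4g, known from liver and gut, and Nr2e1 and Nr2e3, known from neural stem cells and retina, had no promoter peak. Their nearest biosample 1 peaks lay 2.65, 5.17, 3.46 and 2.70 kb from a start site. Nr2e1 was among the 3 CpG-rich receptor genes without a promoter peak, with Rorb and Esrrg.

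The NR2F genes, which encode the COUP-TF repressors and their relative EAR2, all had promoter peaks in biosample 1. Nr2f1 (COUP-TFI; chr13:78200516-78200665, -834 bp) scored 128 and 62, percentiles 92.0 and 85.7. Its 5 start sites all had biosample 1 peaks, 9 in all, but only the most upstream had a biosample 2 peak. Nr2f6 (chr8:71382736-71382885, -850 bp) scored 133 and 53, percentiles 94.2 and 78.1, and was open at each of its 3 start sites. Nr2f2 (COUP-TFII), whose product restrains fat cell formation, had 8 biosample 1 promoter peaks and its strongest (chr7:70361576-70361725, -1058 bp) scored 129, percentile 92.4. The biosample 2 peak that overlaps it (chr7:70361676-70361825) scored 60, percentile 84.2, and began 1083 bp from the start site. Nr2f2 is thus counted as biosample 1 alone only because that peak lies outside the window, and with a window of 2000 bp, or by hotspots, it was open in both lists. The peak of Nr2f6 is printed because it holds the NR4A element AAAGGTCA, in capitals, in a peak of both lists.
Nr2f6, chr8:71382736-71382885, minus strand: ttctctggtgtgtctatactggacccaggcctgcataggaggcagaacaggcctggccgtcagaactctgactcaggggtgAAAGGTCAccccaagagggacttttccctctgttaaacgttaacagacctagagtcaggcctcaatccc

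Of the 4 steroid receptor genes, Nr3c2 and Esr2 were open in both lists. Nr3c2, the mineralocorticoid receptor gene, scored 148 in biosample 1, percentile 99.7, the highest of any receptor promoter, and 84 in biosample 2, percentile 96.3. Only its cluster of start sites from 76902288 to 76902476 was open in both lists, while those 2.85 kb upstream had peaks in biosample 1 alone. The estrogen receptor gene Esr2 was open (chr12:76177936-76178085, -752 bp, 115 and 48), with its strongest peak over 500 bp from the start site. Esr1 had 1 biosample 1 peak of score 47, percentile 25.9 (chr10:4611476-4611625, -438 bp), and a biosample 2 peak 1.44 kb away. Pgr, the progesterone receptor gene, had no promoter peak in either list, and its nearest biosample 1 peak lay 37.3 kb from a start site, the farthest of the set, although a biosample 2 peak of score 9 lay 3.49 kb away. Of 8 genes of estrogen, progesterone and mineralocorticoid action, only Sgk1, a kinase induced by corticosteroids, was open (141 and 56), and Hsd11b1 had a peak in biosample 1 alone. The estrogen-related receptor gene Esrra, a regulator of mitochondrial genes, scored 141 and 90, percentiles 97.5 and 97.8, and was open at each of its 3 start sites. Its relatives Esrrb and Esrrg, known from stem cells and from muscle and brain, had no promoter peak, with the nearest biosample 1 peaks 3.60 and 7.40 kb away.

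The NR4A genes are immediate early genes, known to be induced within minutes by growth factors and cyclic AMP. Each had a biosample 1 promoter peak, the strongest at percentiles from 89.6 to 92.0. The median in that list was 93.8 for receptor genes open in both lists and 95.5 for all such genes. Nr4a1 (chr15:101266636-101266785, -136 bp) scored 128 and 48, percentiles 92.0 and 72.7. Nr4a3 (chr4:48045036-48045185, -42 bp) scored 127 and, in a biosample 2 peak at -502 bp, 46, percentiles 91.5 and 70.3. Nr4a2 (chr2:57114936-57115085, 28 bp) scored 123, percentile 89.6, and had 8 promoter peaks in biosample 1 and none in biosample 2. Instead, shared peaks lay in its intron 1.75 and 2.67 kb from the start site, with scores of 137 and 130 in biosample 1 and 65 and 62 in biosample 2. As for Nr2f2, a window of 2000 bp made Nr4a2 open in both lists. For Nr4a1 the start site 12.6 kb downstream of the most upstream site was open in both lists, and the upstream site had peaks in biosample 1 alone. The part of the Nr4a2 promoter peak that precedes the start site at 57115038 is printed because it begins with the cyclic AMP response element TGACGTCA, in capitals.
Nr4a2, chr2:57115039-57115085, minus strand: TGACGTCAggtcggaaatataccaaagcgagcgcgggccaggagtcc
This element was found in 2 of the 114 receptor promoter peaks of biosample 1, those of Nr4a2 and Nr6a1 (1.75%, 95% Wilson interval 0.482% to 6.17%), beside 1.08% of all promoter peaks.

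The NR5A genes, for receptors that drive steroid synthesis and early development, were closed, with the nearest biosample 1 peaks 2.71 kb from Nr5a1 and 9.57 kb from Nr5a2. Nr6a1 (GCNF), an orphan receptor of germ cells and the early embryo, was open (chr2:38926696-38926845, -496 bp, 138 and 73, percentiles 96.4 and 92.1), although its neighbour Nr5a1 was not. The downstream start sites of Nr6a1, 143 kb along the gene, had a peak in biosample 1 alone.

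The 36 genes have 112 start sites, of which 62 had a biosample 1 peak and 34 had peaks in both lists. Of the 17 open genes, 16 had more than 1 start site. Every site was open in both lists in 4 of the 17, namely Nr1i2, which has a single site, Rora, Nr2f6 and Esrra. The strongest biosample 1 peak was centred within 250 bp of a start site in 9 of the 17 open genes, and the strongest peaks of both lists met in 15. The exceptions were Nr2c1 and Nr4a3. None of the 114 biosample 1 promoter peaks lay within 1000 bp of the start site of another protein-coding gene. In that list no call thus rested on a promoter shared with another protein-coding gene. The check covered neither start sites of non-coding genes nor peaks of the other list, so it does not exclude other shared promoters.

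Away from promoters, the loci (gene body and 50 kb on either side) held 1108 distal peaks in biosample 1 and 303 in biosample 2, each counted once, where a distal peak is one that no protein-coding start site approaches within 1000 bp. The median locus had 12.7 biosample 1 peaks per 100 kb, beside 13.5 over all protein-coding loci, and 3.77 in biosample 2, beside 3.74. The quartiles over receptor loci, 9.74 and 22.7, lay above those of all loci, 7.58 and 19.6. Distal hotspots numbered 899 and 278, and the median locus had 11.1 of them per 100 kb in biosample 1, beside 11.9 over all loci. In biosample 1, 17 of the 36 receptor loci exceeded the median of all loci, and in biosample 2, 18 did.

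The densest loci in biosample 1 were those of Rara with 46.9 peaks per 100 kb, the 99.4 percentile of all loci, Vdr with 41.6, Thra with 35.8, Nr2f2 with 32.2 and Nr2f6 with 30.6. Nearest to the receptor's own start site were 55 of 69 distal peaks at Rara and all 37 at Nr2f2. By contrast, 18 of 65 were at Vdr, 10 of 46 at Thra and 5 of 33 at Nr2f6. The sparsest loci were Hnf4g with 1.20, Nr0b1 with 1.92, Nr5a2 with 4.13, Pgr with 4.74 and Esrrg with 5.10, and all of these 5 genes had no promoter peak. Density did not follow promoter state throughout. Nr5a1, with no promoter peak, had 27.1 peaks per 100 kb, and Hnf4a had 17.5, whereas Thrb and Nr2c2, both open, had 8.37 and 8.75. The median was 19.8 in the 17 open genes, 16.8 in the 6 with a biosample 1 promoter peak alone and 11.4 in the 13 without a promoter peak. Across the 36 loci, density in biosample 1 rose with the number of other protein-coding genes in the locus, which ran from 0 to 7. Spearman's rho was 0.53, a description over 36 loci of the same list. Density in biosample 1 followed density in biosample 2 with a rho of 0.90, beside 0.82 over all loci.

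By subfamily, the median density in biosample 1 was highest for NR2F (30.6 per 100 kb, from 23.5 for Nr2f1 to 32.2 for Nr2f2), the single NR6A locus (27.6), NR1B (23.7, from 16.6 for Rarb to 46.9 for Rara) and NR1I (22.5, from 19.8 for Nr1i2 to 41.6 for Vdr). NR1A had a median of 22.1 from a dense Thra and a sparse Thrb (35.8 and 8.37), and NR5A one of 15.6 from Nr5a1 and Nr5a2 (27.1 and 4.13). In NR1H, Nr1h5 (16.1) was above Nr1h4 (11.2), in NR2E, Nr2e3 (14.4) above Nr2e1 (11.5), and in NR2A, Hnf4a (17.5) far above Hnf4g (1.20). NR4A ran from 10.6 for Nr4a3 to 20.7 for Nr4a1, NR3A from 8.70 for Esr1 to 12.8 for Esr2, and NR2C from 8.75 for Nr2c2 to 12.7 for Nr2c1. NR1F lay at 10.1 for Rora and 11.4 for Rorb. The lowest medians were those of NR3C (8.21, Nr3c2 11.7 and Pgr 4.74), NR3B (7.68, from 5.10 for Esrrg to 19.8 for Esrra) and NR0B (6.78, Nr0b2 11.6 and Nr0b1 1.92). The NR2F median is the value of Nr2f6, where most distal peaks lay nearest to other genes. Subfamilies have 1 to 3 members, so these medians describe the loci of the named genes, neighbouring genes included, and nothing broader.

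**Figure D2:**
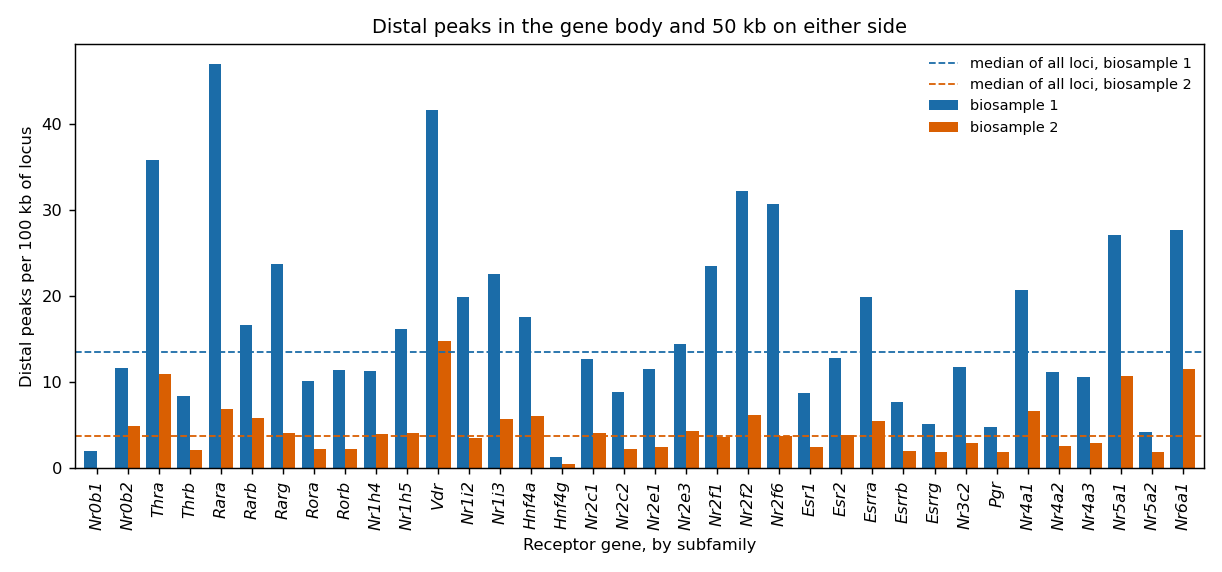
Distal peaks per 100 kb of locus for each receptor gene, ordered by subfamily (blue bars biosample 1, orange bars biosample 2; dashed lines the median of all protein-coding loci, 13.5 and 3.74). Rara and Vdr stand highest in biosample 1, at 46.9 and 41.6, and Vdr highest in biosample 2, at 14.7.

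Summed over loci, 539 of 1127 distal biosample 1 peaks lay in introns of the receptor gene, 34 in its exons, 239 upstream and 315 downstream. The sum exceeds 1108 because the neighbouring loci of Nr5a1 and Nr6a1 share 19 peaks. The receptor's own start site was the nearest for 687 (61.0%). For Nr2f1, Nr2f2, Nr4a2, Thrb, Nr2e3, Esrrb, Hnf4g and Nr5a2 every distal peak of the locus was nearest to the gene's own start site. For Nr0b2 and Nr1i3, in loci with 6 and 7 other genes, none was. For Thra, 10 of 46 were, and the strongest shared distal peak counted for Thra lies beyond its end, nearest to the start of the oppositely directed gene Nr1d1.

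The 6 loci with most shared distal peaks, those met by a biosample 2 peak by at least 1 bp, were Nr6a1 with 33, Rarb with 29, Vdr with 19, Rora with 18, and Thra and Nr3c2 with 13 each. The strongest shared peak in the Vdr locus (chr15:97914436-97914585), 3.88 kb upstream of the gene, scored 148 and 107, the 99.7 percentile of both lists. The strongest in the Thra locus (chr11:98773976-98774125), 1.28 kb from the Nr1d1 start site, scored 149 and 100, percentiles 99.9 and 99.2. The strongest of Rora (chr9:69431996-69432145, downstream of the gene) scored 136 and 79, percentiles 95.5 and 94.7, and that of Nr3c2 (chr8:77021356-77021505, in an intron) scored 128 and 51, percentiles 92.0 and 76.0. The strongest of Nr6a1 (chr2:38823116-38823265, in an intron, with 9 bases in an exon of the antisense gene Nr6a1os) scored 145 and 75, percentiles 99.0 and 93.0. The peaks of Nr6a1 and Vdr are printed, the first because its locus has the most shared distal peaks and the second because it is the strongest distal site of both lists whose nearest start site is the receptor's own. Capitals mark the DR5 in Nr6a1, and in Vdr the TEAD core CATTCC and the steroid receptor core AGAACA or their complements.
Nr6a1 intron, chr2:38823116-38823265, minus strand: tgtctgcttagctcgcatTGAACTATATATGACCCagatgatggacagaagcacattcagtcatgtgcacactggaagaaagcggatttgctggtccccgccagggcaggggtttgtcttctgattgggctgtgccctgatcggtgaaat
Vdr upstream, chr15:97914436-97914585, minus strand: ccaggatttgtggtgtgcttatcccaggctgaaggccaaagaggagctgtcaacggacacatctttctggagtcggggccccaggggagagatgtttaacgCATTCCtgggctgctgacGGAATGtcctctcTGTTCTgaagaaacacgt

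Of the 1108 distal biosample 1 peaks in receptor loci, 282 were shared (25.5%, 95% Wilson interval 23.0% to 28.1%), beside 72124 of all 258421 distal peaks (27.9%, 27.7% to 28.1%). Because a share can vary with the score, it was also set beside that of all distal peaks with the same scores, which was 31.0%. The receptor loci thus lay below the share at their scores, and the gap was uneven among them. With the biosample 1 list shortened to the 97260 strongest peaks, the length of the other list, 224 of 362 were shared (61.9%, 56.8% to 66.7%), beside 76.9% of all distal peaks and 77.4% at the same scores. The size of any share thus depends on the length of the longer list, and shares per locus are given for the full list unless stated. The interval of the locus lay wholly below the share at the same scores for 7 genes, Thra, Rara, Rarg, Vdr, Nr1i3, Nr2f1 and Nr2f2, and wholly above it for 0. In value, 21 of the 36 loci lay below the share at their scores and 15 above it. These counts were not made over all protein-coding loci, so they do not set receptor loci apart from others. The intervals also treat peaks as independent, even where several lie in the same hotspot.

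The gap was widest at Rara, the densest locus, with both the full and the shortened list. Only 9 of its 69 distal biosample 1 peaks were shared (13.0%, 7.02% to 23.0%), beside 46.1% of all distal peaks of the same scores. With the shortened list 9 of 37 were shared (24.3%, 13.4% to 40.1%), beside 78.5%. At Rarg 5 of 29 were shared (17.2%, 7.60% to 34.5%), beside 39.9%. At Rarb the 29 of 81 shared peaks (35.8%, 26.2% to 46.7%) matched the 35.9% at the same scores. Rarb thus had the lowest promoter percentiles of the 3 genes but the most shared distal peaks, in a longer locus. Per 100 kb the shared peaks numbered 5.94 at Rarb, 6.12 at Rara and 4.07 at Rarg. At the NR2F loci 14 of 96 peaks were shared (14.6%, 8.89% to 23.0%), beside 29.8%, with 16.2% at Nr2f2, 15.4% at Nr2f1 and 12.1% at Nr2f6. At Thra 13 of 46 were shared (28.3%, beside 51.6%), at Vdr 19 of 65 (29.2%, beside 42.2%) and at Nr1i3 5 of 24 (20.8%, beside 46.1%). The use of the shortened list for single loci was added after the data were seen. With that list the interval lay wholly below the share at the same scores for the same genes except Vdr (61.3%, 43.8% to 76.3%, beside 74.9%). At Nr6a1 the share was 39.3% and so was that at the same scores. At Nr4a1 it was 28.0%, beside 47.4%, with an interval up to 47.6%. Among the 15 loci above the share at their scores, the values were 33.3% beside 6.40% at Hnf4g, 22.2% beside 6.32% at Nr5a2 and 2 of 8 peaks beside 9.85% at Pgr. At larger loci they were 21.4% beside 14.9% at Rora, 23.3% beside 13.8% at Esr1 and 30.6% beside 20.4% at Esrrg. No interval excluded the share at the same scores in these loci.

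Some of the loci with low sharing, but not all, had many biosample 1 peaks in wide hotspots. At Rara 32 of 69 distal peaks (46.4%) lay in hotspots at least 1000 bp wide, at Thra 58.7%, at Nr2f2 48.6% and at Nr2f1 38.5%, beside 15.7% of all distal peaks. By contrast Nr2f6, where the share was 12.1%, had 3.03% of its peaks there, and Nr4a1 had 3 of 25. Nr4a2 had 53.8% of its 13 distal peaks in such hotspots, and there the share was 23.1%, beside 27.0% at the same scores. The widest distal hotspot of any receptor locus, 4641 bp, was at Rara in biosample 1, where the widest in biosample 2 was 328 bp. Rara had 1.73 distal peaks for each distal hotspot in biosample 1 and Rarb 1.09. Among all distal peaks of the same scores and the same side of the 1000 bp hotspot width, the share was 43.8% for Rara, 47.3% for Thra, 37.2% for Rarg, 44.4% for Nr1i3, 31.2% for Nr2f2, 47.7% for Nr4a1, 39.4% for Vdr and 30.3% for Nr2f1. Against these values the intervals of 6 loci lay wholly below, those of Thra, Rara, Rarg, Nr1i3, Nr2f2 and Nr4a1. This count, too, was not made over all protein-coding loci. The interval of Nr2f2 ended at 31.1% and that of Nr4a1 at 47.6%, just below, while those of Vdr (up to 41.2%) and Nr2f1 (up to 33.5%) did not lie below. Nr6a1 had 21 of its 84 peaks in such hotspots, and a widest hotspot of 4113 bp in biosample 1 and 3101 bp in biosample 2. The part of hotspot width, depth or the peak caller in these differences was not tested.

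**Figure D3:**
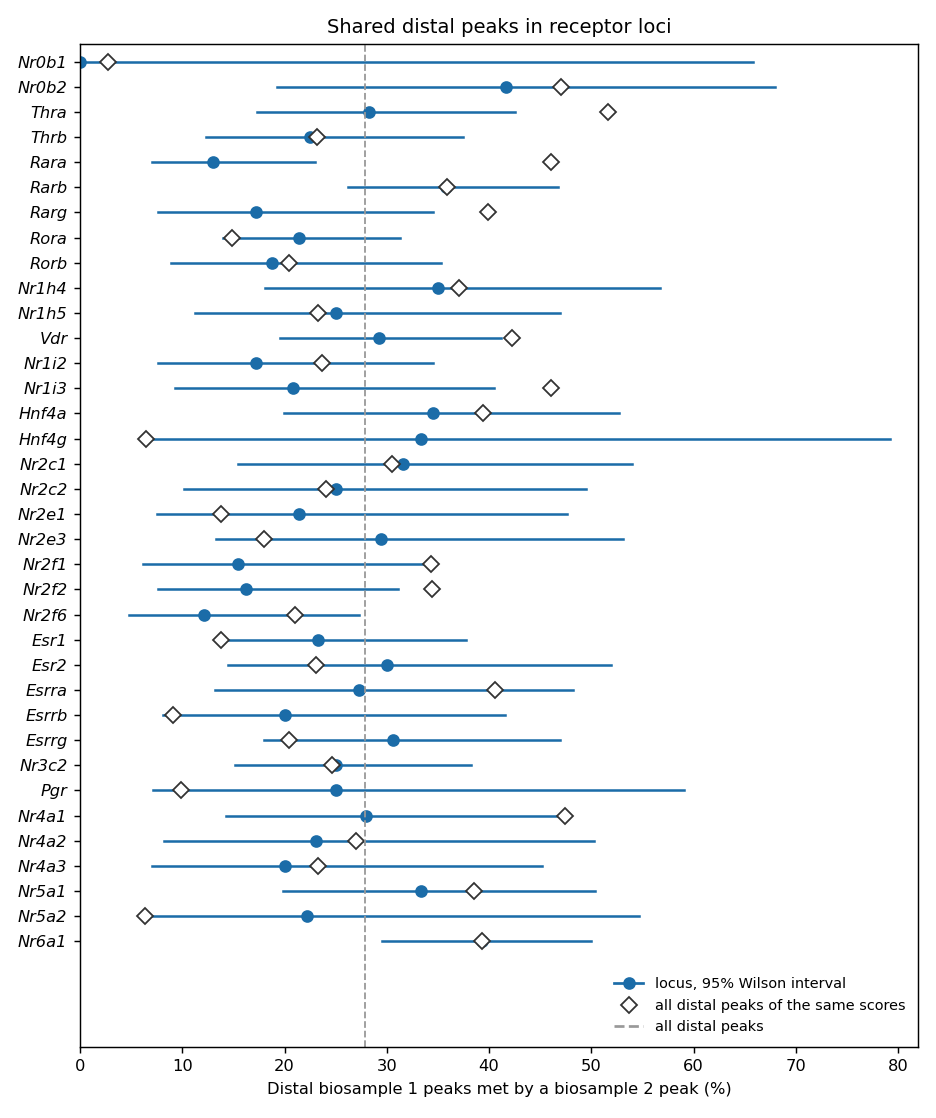
Percent of the distal biosample 1 peaks of each receptor locus met by a biosample 2 peak (blue points, bars the 95% Wilson interval), beside the percent among all distal peaks of the same scores (diamonds) and among all distal peaks (dashed line, 27.9%). At Rara the point lies at 13.0% and the diamond at 46.1%, whereas at Rarb and Nr6a1 they coincide.

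**Figure D4:**
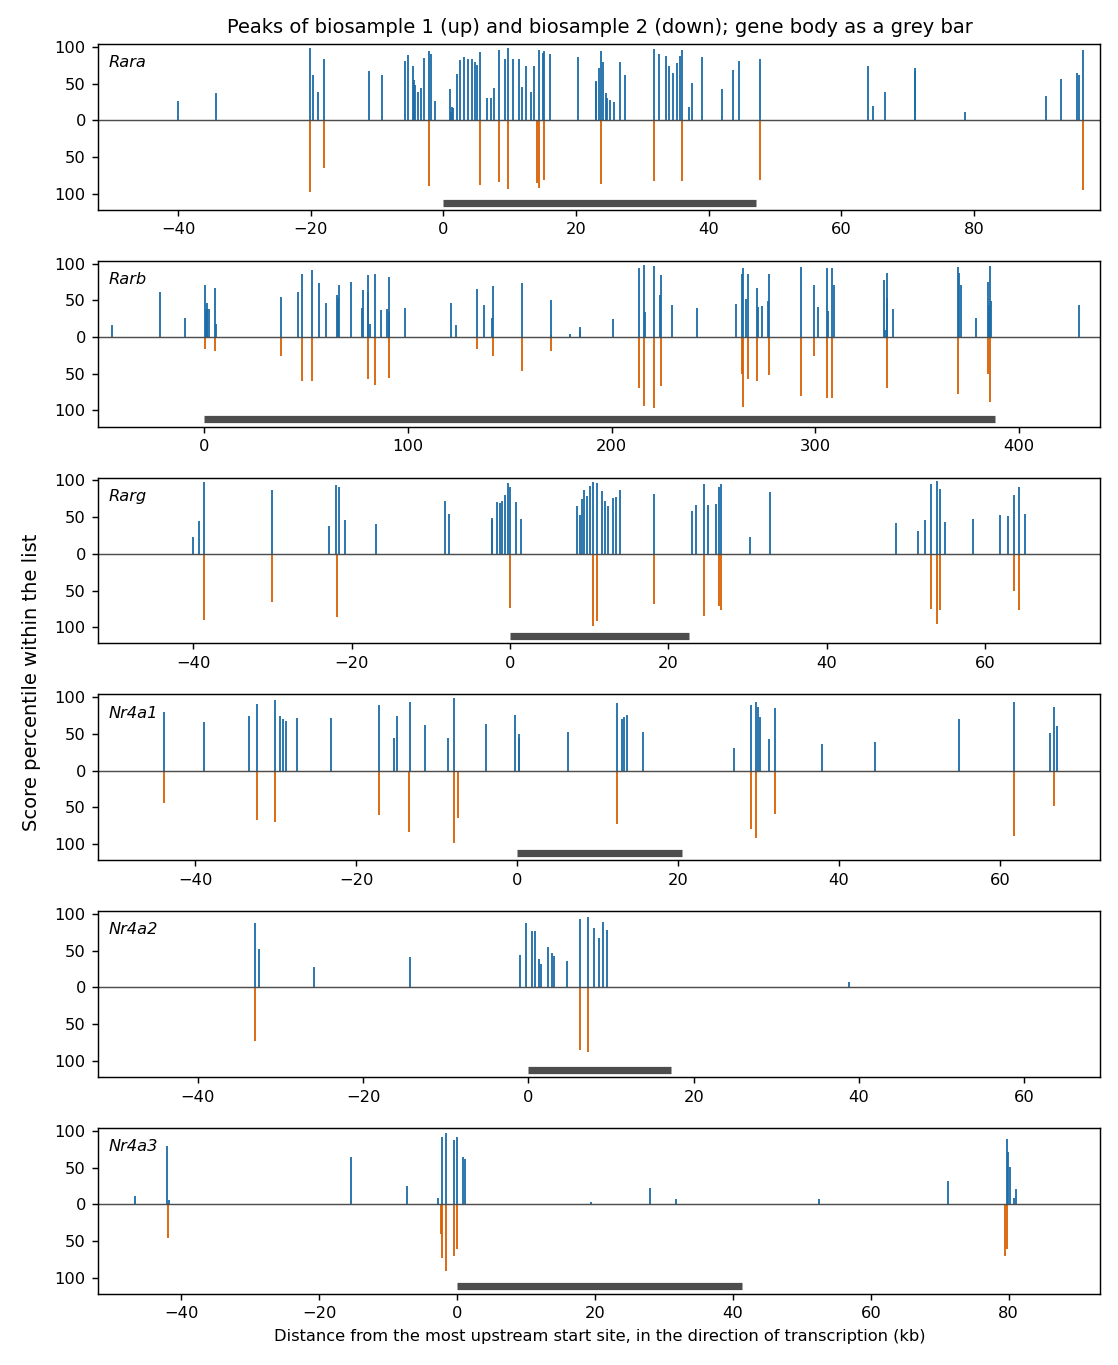
Peaks in the loci of Rara, Rarb, Rarg, Nr4a1, Nr4a2 and Nr4a3 by distance from the most upstream start site in kb (x axis), with height giving the score percentile within the list, biosample 1 upward and biosample 2 downward, and the gene body as a grey bar. Rara shows a dense row of biosample 1 peaks with few below it, Rarb peaks of both lists along the gene, and Nr4a2 biosample 2 peaks in the gene but none at its start.

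Motifs were counted on both strands in the 150 bp peaks. The sites searched contain each other in part: the NR4A element AAAGGTCA and the ROR core TAGGTCA both contain the receptor core AGGTCA. The DR1, DR4 and DR5 repeats, searched with the looser core RGKTCA, can contain it. A DR5 was found in 5 of 1108 distal biosample 1 peaks of receptor loci (0.451%, 0.193% to 1.05%), beside 0.114% of all distal peaks. The 5 lie at Esrra, with 2, and at Nr6a1, Rarg and Rora, and those of Nr6a1 and of 1 Esrra peak were also in biosample 2. The NR4A element was found in 3 of 114 promoter peaks (2.63%, 0.899% to 7.45%), beside 0.500% of all promoter peaks, at Nr1i3, Nr2c1 and Nr2f6, and in 9 distal peaks (0.812%, beside 0.915%). These DR5 and NR4A shares rest on 5 and 3 peaks and were picked out of 13 motifs after their values were seen. The receptor core AGGTCA was in 9.65% of the promoter peaks, beside 7.35%, and in 9.66% of the distal peaks, beside 10.8%. AP-1 sites, TGANTCA, were in 22.9% of the distal peaks of biosample 1, beside 24.4%, and in 31.7% of those of biosample 2, beside 31.2%. The TEAD core was in 12.4% of the distal biosample 1 peaks, beside 14.0%, the RUNX core TGTGGTT in 7.31%, beside 8.18%, and GC boxes in 21.9% of the promoter peaks, beside 25.5%. The steroid receptor core AGAACA was in 3 of 114 promoter peaks (2.63%, 0.899% to 7.45%), beside 8.09% of all promoter peaks, and in 13.4% of the distal peaks, beside 13.5%. Apart from DR5 in distal peaks and the NR4A element and AGAACA in promoter peaks of biosample 1, the shares named here had intervals that held the share of all peaks. A match is not evidence of binding.

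The coregulators through which receptors act had uniformly open promoters, unlike the receptors. All 14 were open, against 51.8% of all genes. By biosample 1 score they ran from 149 and 87 for Med1, the Mediator subunit that contacts liganded receptors, to 92 and 22 for the coactivator gene Ncoa1. Ncoa2 scored 138 and 88, Carm1, a coactivator methyltransferase, 145 and 79, and the corepressor gene Ncor1 132 and 47. The promoters of 12 of these 14 genes are CpG-rich, beside 15 of the 36 receptor promoters, and CpG-rich genes were open in 80.2% and CpG-poor genes in 27.1% of all cases. The lists of ligand metabolism and target genes were open in 2 of 11, 1 of 7, 1 of 10 and 1 of 8 genes, and of these 6, 2, 3 and 3 promoters are CpG-rich.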

How the data were processed

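DNase-seq peak and hotspot lists of 2 biosamples of 3T3-L1 cells were used. Both technical libraries of a biosample went into 1 alignment to mm10, from which the authors called both lists, per the labels. Aligner and caller are not given in the sources used here. Every deposited peak carries the authors' score, up to 150, which served for ranking inside its own list. Each deposited hotspot carries a −log10 q value from 1.30 to a cap of 100, which was not used to rank. Depth is unknown.

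Genes and protein-coding start sites came from GENCODE M21, sequences from GRCm38.p6 and RefSeq. Chromosomes 1 to 19, X and Y were used. A promoter peak reached within 1000 bp of a start site, and a distal peak in a locus lay beyond 1000 bp of every start site, in the gene body or 50 kb around it. A shared peak overlapped one of the other list by 1 bp or more, checked in bedtools 2.31.1. Intervals are 95% Wilson intervals, and the code that overlaps peaks with genes was tested on simulated data. Everything else was computed in Python 3.11.15 with pandas 2.3.3. Alternatives for the window, start sites, list length, flank and overlap were tried.

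The receptor genes, the gene lists and the motifs were chosen with earlier results of these data known, so no list is independent support. Positions and values are given for every gene with a promoter peak, for the 5 densest and 5 sparsest loci, for the highest and lowest density of each subfamily, and for the strongest shared distal peak of the 6 loci with most of them. By the same rule, sequences were printed for the strongest promoter peak of the 4 genes with the highest mean percentile and for the strongest shared distal peak of the 2 loci with most of them, Nr6a1 and Rarb. Those of the Rarb DR5, Nr2f6, Nr4a2 and Vdr were chosen after their values were seen. Some genes of the lists are not reported here by name.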

Additional observations from a re-analysis of the deposited data

How the results depend on the processing

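The number of receptor genes open in both lists was 17, and ran from 13 to 21 under the alternatives that use both lists. A peak was found for 23 genes in the biosample 1 list alone and for 17 in the biosample 2 list alone. It was 13 with a window of 500 bp, which lost Esr2, Nr1i2, Nr2f1 and Thrb, and 13 with the most upstream start site alone, which lost Nr3c2, Nr4a1, Rara and Vdr. It was 21 with a window of 2000 bp, which gained Esr1, Nr1h5, Nr2f2 and Nr4a2, 15 with the stronger 50% of each list, which lost Rarb and Thrb, and 18 by hotspots, which gained Nr2f2. Of 252 calls on single genes under these settings, 21 changed. The 1108 distal peaks became 573 with the gene body alone and 546 with the stronger 50% of each list, both of which count fewer bases or peaks by construction. The shared percentage, 25.5, became 28.9 with the stronger 50% of each list and 61.9 with the biosample 1 list shortened to the length of the other. It stayed between 23.6 and 26.5 with other flanks, an overlap of 75 bp or hotspots. No paired analysis was possible because each biosample has 1 list and no result comes from a test. Unknown depth limits every statement that a site was absent from a list.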
